A study of Mus musculus with 19 samples.

Results

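The proteasome genes described here are all 48 genes of the mouse tables whose symbol begins with Psma to Psmg and a number, out of 14459 genes in all. The rule uses only names, though this gene family was picked with earlier results of these data known. They hold 7 alpha subunits (Psma1 to Psma7), 7 constitutive beta subunits (Psmb1 to Psmb7), 3 inducible beta subunits (Psmb8 to Psmb10), the thymic beta subunit Psmb11, 6 ATPases (Psmc1 to Psmc6), 11 further subunits of the regulatory particle (Psmd genes), 3 chaperones of its base (Psmd5, Psmd9, Psmd10), 4 activator genes (Psme1 to Psme4), the inhibitor Psmf1 and 4 assembly chaperones of the core (Psmg1 to Psmg4). Psmc3ip, a cofactor of meiotic recombination, matched by name only and is not a proteasome gene. All 48 symbols matched a protein-coding gene of the RefSeq annotation.

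The study compared hippocampal slices of male Fmr1 KO mice with those of wild-type (WT) littermates, C57BL/6, aged 28 to 35 days. Fmr1 encodes FMRP, a protein that binds RNA in neurons and whose loss causes fragile X syndrome, and the comparison asks which messages carry more or fewer ribosomes without it. Slices of 400 µm were rested at 30 °C for 3 to 4 h and then treated with cycloheximide (100 µg/ml), which holds ribosomes on their messages. Each replicate pooled 8 to 10 slices from 6 to 8 mice, so the spread between mice within a pool is not seen. Ribosome-protected footprints (RPF) and cytoplasmic RNA were sequenced, with 3 KO and 4 WT libraries for each. The protocol describes trimming CA3 away to enrich CA1, whereas the source name gives hippocampal-cortical slices.

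The 26S proteasome is the machine that degrades proteins tagged with ubiquitin. Its 20S core is a barrel of alpha rings at the ends, which gate entry, around beta rings, whose Psmb5, Psmb6 and Psmb7 subunits cut the chain. The 19S regulatory particle binds the ubiquitin tag, removes it and feeds the unfolded substrate in through a ring of ATPases. In neurons, degradation by the proteasome is part of how synapses are remodelled. Because the subunits are built into one complex in fixed proportions, their messages can be read against each other as well as between genotypes.

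Library totals were 15.57 to 22.71 M estimated counts for footprints and 4.97 to 9.96 M for RNA, with a median of 2424 footprint and 519 RNA counts for a proteasome gene. Fmr1 checks the labels: its footprints were 4.81 ± 0.22 TPM in KO and 44.4 ± 1.53 TPM in WT libraries (mean ± SD, n = 3 and 4), and its RNA was 4.42 ± 0.77 TPM in KO and 17.3 ± 1.46 TPM in WT libraries. TPM is a transcript level scaled to the library total and corrected for gene length. The tables have a floor near 1 TPM, so folds of genes near it are uncertain. Within the groups, the direction that sets libraries 1 and 2 against 3 and 4 holds 3.83% of the variance in footprints and 2.27% in RNA, whereas each other direction holds at least 17.96% and 20.0%. The labels name no adjustment, and the p-values take no account of one. Markers of neurons, astrocytes and oligodendrocytes were present in these slices. Their lowest listed markers had 58.6, 18.2 and 153 TPM in WT RNA, where the median gene had 22.1 TPM. Of the 4 CA1 markers Wfs1 fell in KO slices (log2 fold change -0.41 in footprints and -0.52 in RNA). Of all genes 10.4% fell in footprints and 2.77% in RNA. The other 3 were not called, with Fibcd1 at -0.13, Mpped1 at 0.08 and Pou3f1 at 0.11 in footprints and all below 0 in RNA. At an unadjusted edgeR p under 0.05 there were 4 CA1 markers in footprints, 2 higher and 2 lower, and 3 in RNA, all lower. Of all genes tested, 4523 of 14438 had such a p in footprints and 2841 of 13877 in RNA. In bulk slices, fewer cells of a type and less RNA per cell cannot be told apart.

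Footprints of the proteasome were higher in KO slices. Over the 31 subunits of the 26S particle, summed footprints were 6374, 6026 and 6105 TPM in KO libraries, against 5673, 5428, 5817 and 5611 TPM in WT libraries. The groups did not overlap, and the sum took 0.608% ± 0.018 of all footprint TPM in KO and 0.556% ± 0.016 in WT (SD, n = 3 and 4). Of these 31 genes, 15 rose, 0 fell and 16 were not called, at a Benjamini-Hochberg adjusted p under 0.05 from edgeR over all genes, where 8.15% of genes rose and 10.4% fell. None of the 31 had an unadjusted p under 0.05 in the lower direction, and DESeq2 and limma called 0 lower. This follows from the signs alone, as all 31 lay above 0 with edgeR, DESeq2 and limma alike. All 31 fold changes lay above 0, against 50% of all genes, with a median log2 fold change of 0.12, or 8.37%, against -0.0001 over all genes. In 19 of the 31 every KO library lay above every WT library, against 15.1% of all genes. Adrm1 and Shfm1, subunits of the particle with other names, are not among the 31. Their log2 fold changes in footprints were 0.22 ± 0.04 and -0.06 ± 0.05. The changes were small: the largest of the 31 was 0.19. Of the 17 genes outside the particle 2 rose, Psmf1 and Psmg1, and the median of the 17 was 0.004. Their summed footprints were 605 to 619 TPM in KO and 574 to 602 TPM in WT libraries, also without overlap. Scaling sets the typical gene near 0, so a change shared by all genes would not be seen.

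**Figure D1:**
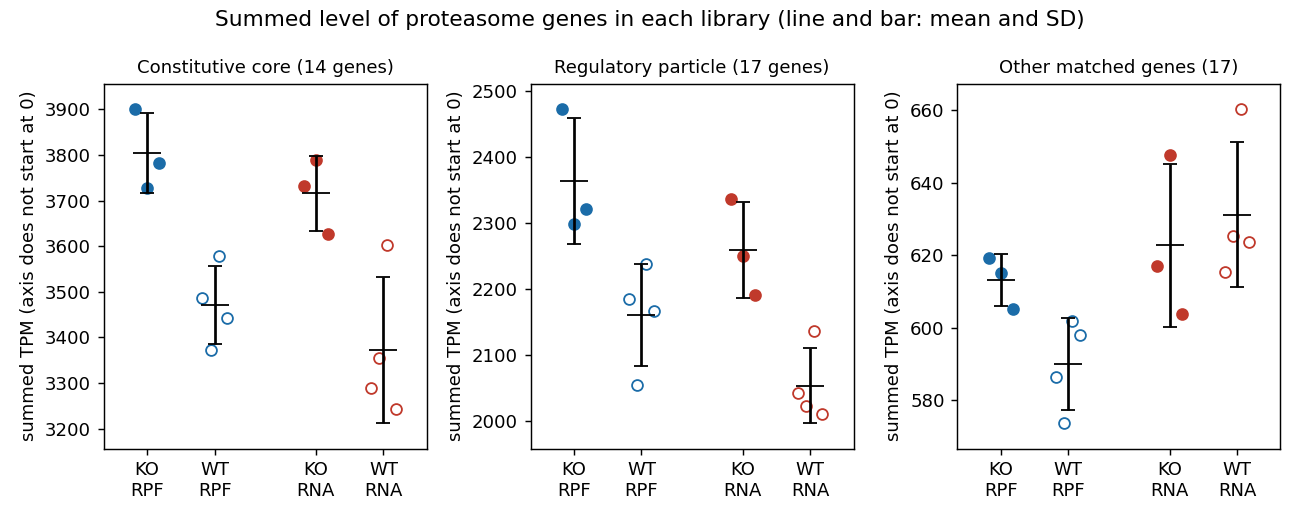
Summed TPM in each library of the constitutive core, the regulatory particle and the other matched genes, with KO left of WT in footprints (blue) and RNA (red), filled points for KO, and mean and SD in black; the vertical axes do not start at 0. Footprint sums of the core are 3728 to 3901 TPM in KO and 3373 to 3579 TPM in WT. Those of the regulatory particle are 2298 to 2473 TPM in KO and 2055 to 2238 TPM in WT. Those of the other matched genes are 605 to 619 TPM in KO and 574 to 602 TPM in WT. None of these footprint sums overlaps between genotypes, while RNA sums of the other matched genes overlap.

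Of the core, 9 of 14 subunits rose. The beta ring had the larger share, 6 of 7 (Psmb1, Psmb2, Psmb4, Psmb5, Psmb6 and Psmb7), although the difference between rings was not tested. Psmb4, a structural subunit of the ring, had footprints of 286, 275 and 272 TPM in KO libraries, against 238, 242, 251 and 245 TPM in WT libraries. Every KO library stood above every WT library by more than the spread within either group (log2 fold change 0.18 ± 0.03 SE, adjusted p = 0.0037). Psmb1, another structural subunit and the member with the most footprints, had footprints of 454, 449 and 462 TPM in KO libraries, against 403, 398, 405 and 402 TPM in WT libraries (log2 fold change 0.17 ± 0.03 SE, adjusted p = 0.00404). Its WT libraries differed little among themselves, and every KO library lay above them. The 3 catalytic subunits were all among the called genes. Psmb6, the caspase-like subunit, had footprints of 215, 213 and 212 TPM in KO libraries, against 194, 189, 197 and 187 TPM in WT libraries (log2 fold change 0.14 ± 0.03 SE, adjusted p = 0.0105). Psmb7, the trypsin-like subunit, was at 0.14 ± 0.04, and Psmb5, the chymotrypsin-like subunit that proteasome inhibitors bind, at 0.11 ± 0.03. Psmb3, at 0.08 ± 0.04, was the ring's member that was not called.

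In the alpha ring Psma1, Psma6 and Psma7 rose. Psma1 had footprints of 228, 213 and 217 TPM in KO libraries, against 194, 183, 197 and 195 TPM in WT libraries (log2 fold change 0.18 ± 0.03 SE, adjusted p = 0.00513). Its lowest KO library stood above its highest WT library. The other 4 alpha genes were above 0 without passing the test, from 0.04 ± 0.04 for Psma3 to 0.11 ± 0.04 for Psma4. Psma4 missed narrowly, at an adjusted p of 0.0502, with KO libraries at 247 to 266 TPM and WT libraries at 222 to 244 TPM.

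In the regulatory particle 6 of 17 subunits rose: the ATPases Psmc1, Psmc2 and Psmc3, and Psmd6, Psmd7 and Psmd11. Psmc2, the strongest of these, had footprints of 144, 131 and 135 TPM in KO libraries, against 117, 113, 124 and 120.1 TPM in WT libraries (log2 fold change 0.19 ± 0.04 SE, adjusted p = 0.00559). The groups did not overlap. Psmd11, a scaffold subunit of the lid whose higher level is known to favour assembly of 26S particles in human embryonic stem cells, had footprints of 135, 128 and 129.7 TPM in KO libraries, against 119, 112, 118 and 118 TPM in WT libraries (log2 fold change 0.15 ± 0.03 SE, adjusted p = 0.00833). Psmd7, the partner of the deubiquitinase Psmd14, had footprints of 146, 141 and 146 TPM in KO libraries, against 133, 127, 132 and 131 TPM in WT libraries (log2 fold change 0.14 ± 0.03 SE, adjusted p = 0.013). In both, the KO libraries lay above all WT libraries. Psmd14 itself, which cuts the ubiquitin chain off the substrate, was at 0.13 ± 0.05 with an adjusted p of 0.071 and overlapping libraries. The ubiquitin receptor Psmd4 was at 0.12 ± 0.04 (adjusted p = 0.0722). The scaffold pair Psmd1 and Psmd2, the largest subunits, were at 0.05 ± 0.04 and 0.07 ± 0.04 and were not called.

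How firmly single genes were called depended on the libraries. Psma1, Psmb1, Psmb4, Psmb6, Psmc2, Psmd11 and Psmf1 were called whichever library was left out, with a highest adjusted p of 0.0394. The number of members that rose was 17 with all libraries, 11 without KO library 1, 17 without KO 2, 9 without KO 3, 14 without WT 1, 10 without WT 2, 19 without WT 3 and 9 without WT 4. Psmc1 lost its call without WT 4 (adjusted p = 0.0507) and Psmd7 without KO 3 (0.0638). Psmc3 lost it without KO 1 or WT 2 (at most 0.0668), Psma7 without KO 3, WT 2 or WT 4 (at most 0.0836), and Psmg1 without KO 1, KO 3 or WT 4 (at most 0.0671). Psmd6 lost it without KO 1, KO 3, WT 2 or WT 4 (at most 0.116), and Psmb7 without KO 3, WT 2, WT 3 or WT 4 (at most 0.123). Psmb2 lost it without any of KO 1, KO 3, WT 1, WT 2 and WT 4 (at most 0.0777). Psma6 kept its call only without KO 2, and Psmb5 only without WT 3 (at most 0.161 and 0.109 otherwise). All 31 particle subunits stayed above 0 in each of these fits. Within libraries 1 and 2 the median difference of the 31 was 0.14, and within libraries 3 and 4, which hold 1 KO library, it was 0.10, with 31 and 30 genes above 0.

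**Figure D2:**
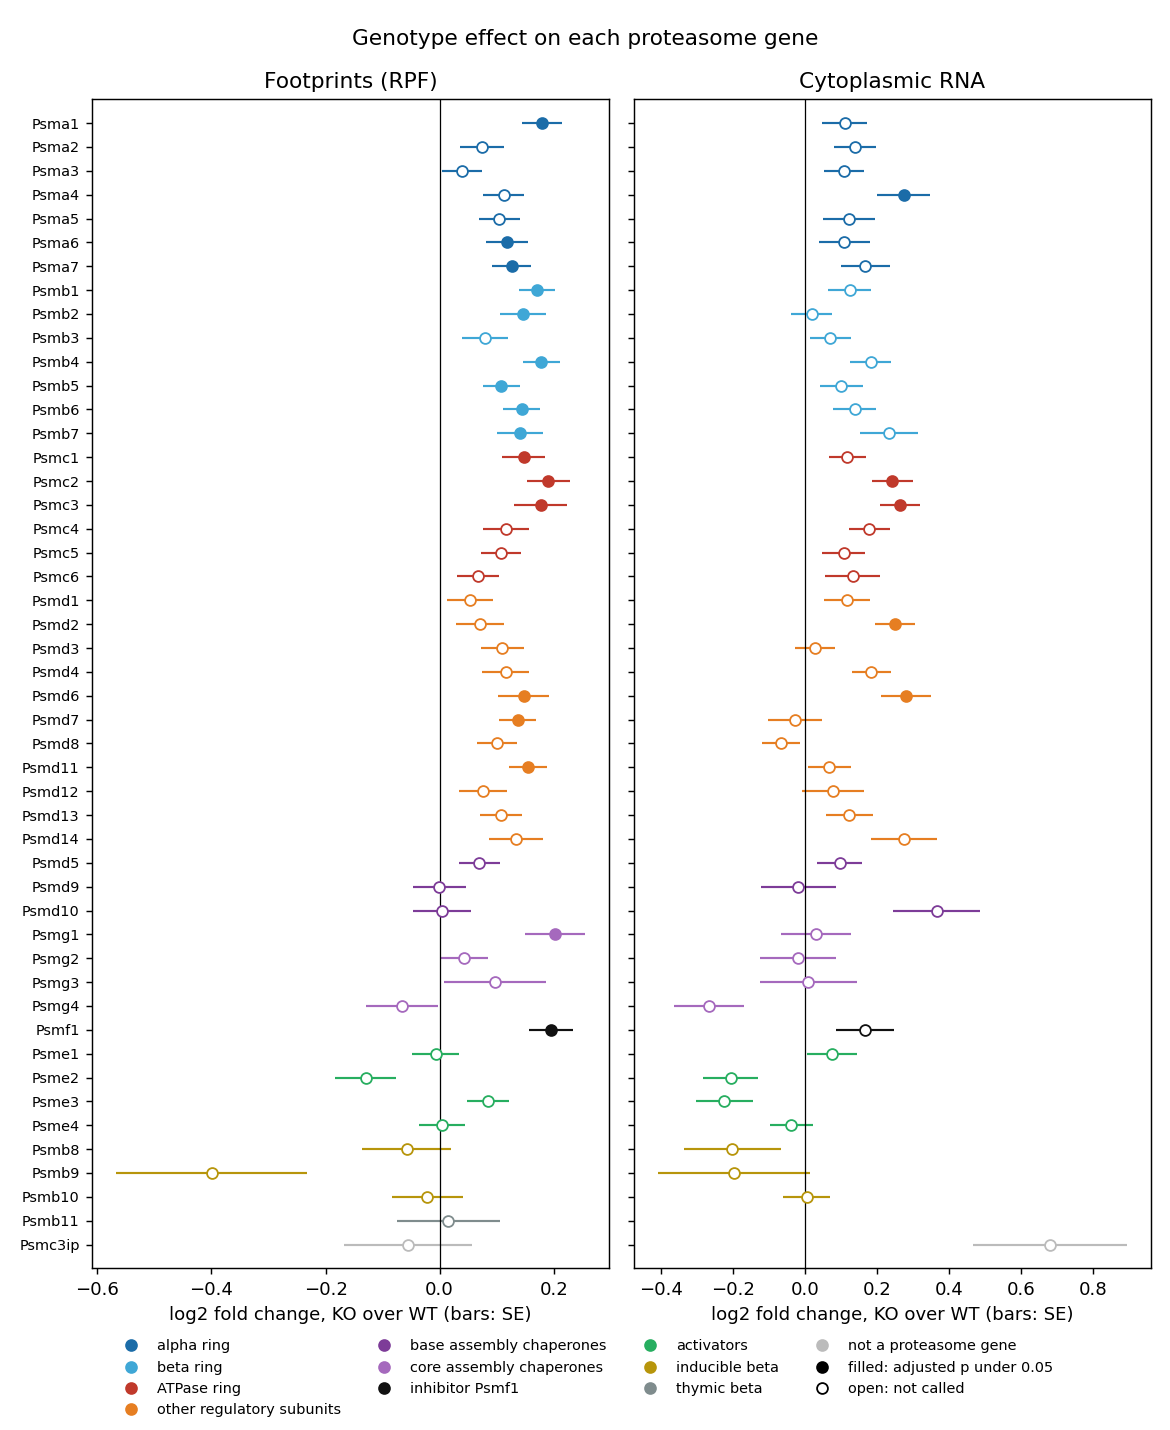
Log2 fold change of KO over WT for each gene in footprints (left) and RNA (right), ordered by role, with standard errors as bars and filled points for an adjusted p under 0.05; the 2 panels have different horizontal ranges. All 31 genes from Psma1 to Psmd14 lie right of 0 in footprints, and 29 in RNA, while the genes below them scatter on both sides.

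The members were also set beside the sequence around their starts. A set of 3 short motifs was searched on both strands from 250 bases before to 50 bases after each RefSeq start (GRCm38.p6): CCGGAAG, a core bound by ETS factors, CCAAT, bound by NF-Y, and TGACNNNGC, the core of the antioxidant response element, through which Nfe2l1 is known to raise proteasome genes when the proteasome is inhibited. None of the motifs contains another, and a gene counts once if any of its RefSeq promoters matches. Of the 41 members with a promoter in the RefSeq table, 15 (36.6%) held CCGGAAG, against 17.7% of the 10897 genes of the tables that have one and 8.86% of all promoters of that length. CCAAT was held by 15 of 41 (36.6%), against 42.5% of the genes of the tables and 37.4% of all promoters. TGACNNNGC was held by 6 of 41 (14.6%), against 16.8% and 12.4%. Footprints rose in 6 of the 15 members with CCGGAAG and in 6 of the 26 without it, in 5 of 15 with CCAAT and 7 of 26 without, and in 2 of 6 with TGACNNNGC and 10 of 35 without, and these differences were not tested. Psmc6, Psmd2, Psmd4 and Psmd12 are among the 9 holders of CCGGAAG that were not called. A match is only a description of the letters. The 100 bases before the start are shown for 5 genes whose footprints rose and which hold CCGGAAG there, and for the catalytic subunit Psmb5, which holds TGACNNNGC, 5′ to 3′ on the gene's strand, with the match on either strand in capitals.
Psmc2 (chr5:21785175-21785274, plus strand): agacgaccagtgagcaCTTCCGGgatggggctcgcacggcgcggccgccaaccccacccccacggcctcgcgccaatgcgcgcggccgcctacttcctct
Psmd11 (chr11:80428515-80428614, plus strand): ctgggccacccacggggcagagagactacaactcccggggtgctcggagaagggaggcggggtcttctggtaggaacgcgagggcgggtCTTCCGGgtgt
Psmc1 (chr12:100110102-100110201, plus strand): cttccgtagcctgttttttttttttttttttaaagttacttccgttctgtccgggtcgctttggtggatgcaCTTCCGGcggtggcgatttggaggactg
Psmd6 (chr14:14120946-14121045, minus strand): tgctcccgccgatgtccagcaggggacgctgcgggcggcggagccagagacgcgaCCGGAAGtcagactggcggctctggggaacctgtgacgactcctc
Psmg1 (chr16:95990961-95991060, minus strand): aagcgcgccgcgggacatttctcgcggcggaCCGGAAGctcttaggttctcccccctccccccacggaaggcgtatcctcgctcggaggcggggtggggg
Psmb5 (chr14:54617996-54618095, minus strand): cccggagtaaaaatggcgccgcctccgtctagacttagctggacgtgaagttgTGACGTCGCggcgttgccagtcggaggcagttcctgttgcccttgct
The match lies 84 bases before the start in Psmc2, 69 in Psmg1, 45 in Psmd6, 28 in Psmc1 and 11 in Psmd11, counted to its first base, and 47 in Psmb5. Footprints of these 6 genes rose by 0.11 to 0.20 on the log2 scale.

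RNA of the particle was higher in KO slices as well, with fewer genes called. Summed RNA of the 31 subunits was 6069, 6039 and 5818 TPM in KO libraries, against 5332, 5378, 5740 and 5254 TPM in WT libraries. The groups did not overlap, and WT library 3 stood closest to the KO libraries. The share of all RNA TPM was 0.592% ± 0.014 in KO and 0.536% ± 0.021 in WT. Of the 31, 5 rose and 0 fell, where 2.11% of all genes tested rose and 2.77% fell. DESeq2 and limma called 0 lower, and at an unadjusted p under 0.05 there were 14 higher and 0 lower. The median log2 fold change was 0.12, or 8.96%, and 29 of the 31 lay above 0, against 48.7% of all genes. In 16 every KO library was above every WT library, against 9.03% of all genes. Psmd7 and Psmd8 were the subunits below 0, at -0.03 ± 0.07 and -0.06 ± 0.05, neither called.

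The 5 RNA calls were Psma4, the ATPases Psmc2 and Psmc3, Psmd2 and Psmd6. Psmc3 had RNA of 247, 245 and 239 TPM in KO libraries, against 194, 206, 213 and 197 TPM in WT libraries (log2 fold change 0.26 ± 0.05 SE, adjusted p = 0.0164). Its lowest KO library lay above its highest WT library. Psmd2, a docking platform for ubiquitin receptors, had RNA of 239.6, 216 and 214 TPM in KO libraries, against 188, 179, 201 and 181 TPM in WT libraries (log2 fold change 0.25 ± 0.06 SE, adjusted p = 0.0203). Psmc2 had RNA of 89.7, 90.2 and 85.0 TPM in KO libraries, against 77.5, 70.6, 73.4 and 75.9 TPM in WT libraries (log2 fold change 0.24 ± 0.06 SE, adjusted p = 0.0233). In both the groups did not overlap. Psmd6, a lid subunit, had RNA of 79.5, 84.0 and 70.0 TPM in KO libraries, against 63.3, 60.2, 64.9 and 65.5 TPM in WT libraries (log2 fold change 0.28 ± 0.07 SE, adjusted p = 0.0311). Psma4 was at 0.28 ± 0.07. These calls rested on few libraries: 1 was left without KO 1, KO 2 or WT 4, 2 without WT 2 and 3 without WT 1, while 6 members were called without KO 3 or WT 3. Psmc3 lost its call only without KO 2 (adjusted p = 0.0509), and Psmd2 without KO 1 or WT 4 (at most 0.0698). Psmc2 lost it without KO 1, KO 2, WT 2 or WT 4 (at most 0.0745). Psma4 and Psmd6 lost it without KO 1, KO 2, WT 1, WT 2 or WT 4 (at most 0.14 and 0.111). No beta subunit was called in RNA, where the ring's fold changes ran from 0.02 to 0.23 with a median standard error of 0.06, against 0.03 in footprints.

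Translational efficiency (TE), the footprint change relative to the RNA change, was not called for any of the 48 genes by edgeR or limma, nor by DESeq2 for those it gave an adjusted p, which left out some members with low counts. At an unadjusted p under 0.05 edgeR gave 5 genes, 2 higher and 3 lower, and over all 14435 genes tested 0.0139% were called higher and 0.0208% lower. For the 31 subunits the median was -0.02, with 10 above 0, against 46.9% of all genes. The smallest p belonged to Psme3, the nuclear activator PA28-gamma (log2 difference 0.30 ± 0.09, adjusted p = 0.148). Its footprints per RNA, as a ratio of TPM in libraries of the same number, were 1.54, 1.38 and 1.63 in KO libraries, against 1.36, 1.10, 1.21 and 1.24 in WT libraries. All KO libraries lay above all WT libraries. Psmd8, a lid subunit, had ratios of 0.485, 0.501 and 0.509 in KO libraries, against 0.469, 0.428, 0.431 and 0.446 in WT libraries (0.16 ± 0.06, adjusted p = 0.321). Psmd2 went the other way, with 0.475, 0.466 and 0.475 in KO libraries, against 0.534, 0.529, 0.524 and 0.548 in WT libraries (-0.19 ± 0.07, adjusted p = 0.316). Neither pair of groups overlapped, and neither difference passed the test. Psmd10, the chaperone also called gankyrin, had ratios of 1.54, 1.71 and 1.77 in KO libraries, against 2.5, 1.77, 1.94 and 2.55 in WT libraries, which overlapped (-0.37 ± 0.14, adjusted p = 0.316).

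All 48 genes were tested in footprints and 47 in RNA, where Psmb11 did not pass the count filter. Of the 16 genes outside the particle that were tested in RNA edgeR called 0, with 2 higher and 3 lower at an unadjusted p under 0.05. The assembly factors and the inhibitor were mixed. Psmf1, which encodes the proteasome inhibitor PI31, had footprints of 59.9, 60.9 and 58.2 TPM in KO libraries, against 50.4, 50.3, 52.8 and 53.5 TPM in WT libraries (log2 fold change 0.20 ± 0.04 SE, adjusted p = 0.00571). The groups did not overlap. Psmg1, one partner of the chaperone pair that starts the alpha ring, had footprints of 24.9, 23.0 and 24.5 TPM in KO libraries, against 20.8, 21.1, 22.1 and 19.4 TPM in WT libraries (log2 fold change 0.20 ± 0.05 SE, adjusted p = 0.0198), without overlap, while its RNA was at 0.03 ± 0.10. With DESeq2 the Psmg1 footprint difference did not pass (adjusted p = 0.0794). Its partner Psmg2 was at 0.04 ± 0.04 in footprints. Psmg3 and Psmg4, the other chaperone pair, were at 0.10 ± 0.09 and -0.07 ± 0.06, and Psmg4 RNA lay below WT in every KO library (log2 fold change -0.27 ± 0.10 SE, adjusted p = 0.2). The base chaperones Psmd5, Psmd9 and Psmd10 were at 0.07 ± 0.04, -0.00038 ± 0.05 and 0.0041 ± 0.05 in footprints and were not called in either assay. The recombination cofactor Psmc3ip, which is not a proteasome gene, had RNA of 4.39, 5.73 and 3.96 TPM in KO libraries, against 3.26, 1.66, 3.59 and 2.46 TPM in WT libraries, without overlap and without passing the test (log2 fold change 0.68 ± 0.21 SE, adjusted p = 0.195).

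None of the 4 activator genes was called by edgeR or DESeq2 in either assay. At an unadjusted edgeR p under 0.05 there was 1 in footprints, Psme3, and 2 in RNA, Psme2 and Psme3. Psme1 and Psme2 together form the interferon-inducible activator PA28. Psme1 had footprints of 80.6, 76.3 and 79.1 TPM in KO libraries, against 80.7, 73.0, 79.6 and 80.9 TPM in WT libraries, with overlap (log2 fold change -0.01 ± 0.04 SE, adjusted p = 0.953). Psme2 was at -0.13 ± 0.05 in footprints. Psme2 RNA was 52.2, 47.9 and 44.6 TPM in KO libraries, against 53.8, 52.2, 54.0 and 59.4 TPM in WT libraries, with KO library 1 and WT library 2 equal to the digits shown (log2 fold change -0.20 ± 0.08 SE, adjusted p = 0.134). Psme3 footprints were 123, 121 and 118 TPM in KO libraries, against 113, 107, 115 and 117 TPM in WT libraries, with the lowest KO library only just above the highest WT library (log2 fold change 0.08 ± 0.04 SE, adjusted p = 0.143), while its RNA was at -0.22 ± 0.08. Psme4, the activator PA200, had footprints of 7.45, 7.04 and 7.03 TPM in KO libraries, against 6.99, 6.75, 7.42 and 7.25 TPM in WT libraries, also with overlap, and was at 0.0041 ± 0.04 in footprints and -0.04 ± 0.06 in RNA.

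The inducible beta subunits, which replace Psmb5, Psmb6 and Psmb7 in the immunoproteasome, stood far below the constitutive ones in these slices and were not called. Psmb10 had footprints of 33.1, 36.3 and 34.8 TPM in KO libraries, against 36.5, 33.1, 37.9 and 32.0 TPM in WT libraries, and Psmb8, which replaces Psmb5, had footprints of 3.41, 3.17 and 3.46 TPM in KO libraries, against 3.3, 3.86, 3.42 and 3.48 TPM in WT libraries. Psmb9, close to the floor, had footprints of 1.8, 2.47 and 1.46 TPM in KO libraries, against 2.61, 1.95, 3.02 and 2.29 TPM in WT libraries. In all 3 genes the groups overlapped, with log2 fold changes of -0.02 ± 0.06, -0.06 ± 0.08 and -0.40 ± 0.17. Psmb11 was lowest of all members, with footprints of 1.43, 1.3 and 1.3 TPM in KO libraries, against 1.37, 1.4, 1.25 and 1.45 TPM in WT libraries, and is uncertain there. Microglia, the resident immune cells of the brain, had lower markers in KO slices. In footprints 12 of 14 fell, where 10.4% of all genes fell. In RNA 8 markers fell, where 2.77% of all genes did, and none rose in either assay. All 14 markers lay below 0 in footprints and 13 in RNA, where 1 lay above 0. Their summed footprints were 734 to 787 TPM in KO and 879 to 904 TPM in WT libraries, and their summed RNA 1052 to 1069 TPM in KO and 1216 to 1252 TPM in WT libraries. Of 21 genes of antigen presentation and the interferon response 5 fell in footprints (B2m, Tap2, Tapbp, Erap1 and Cd74) and Irf1 rose. Of all genes 10.4% fell and 8.15% rose in footprints. EdgeR called none of the 21 in RNA, where 6 had an unadjusted p under 0.05, 2 higher and 4 lower. Against those shares of all genes, markers of other cell types were called too. Of 10 endothelial markers 3 fell in footprints (Ly6a, Ly6c1 and Kdr), 9 lay below 0, and the median was -0.23, with summed footprints of 49.0 to 60.2 TPM in KO and 51.0 to 71.7 TPM in WT libraries. Of 8 oligodendrocyte markers 4 fell in footprints (Mog, Mag, Cldn11 and Ugt8a), Cnp rose, and the median was -0.14. Summed footprints of the 8 were 13276 to 13873 TPM in KO and 13530 to 15089 TPM in WT libraries, with overlap. Of 8 astrocyte markers 2 rose and 2 fell in footprints. Of 8 neuronal markers 1 rose and 0 fell in footprints, with 4 above 0 and a median of 0.01. In RNA edgeR called 0 endothelial markers, 0 astrocyte markers, 1 oligodendrocyte marker, which was higher, and 1 neuronal marker, also higher. The part of these cells in the values of the inducible subunits and activators was not tested.

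Beyond the genotype, the levels of the subunits were more even in footprints than in RNA. Over the 31 subunits the coefficient of variation of the mean TPM was 41.0% for footprints and 57.2% for RNA in KO slices, and 40.4% and 57.7% in WT slices. For the 17 subunits of the regulatory particle it was 22.3% and 52.9% in KO slices, and 22.0% and 55.9% in WT slices. For the 7 alpha subunits it was 13.1% and 25.6% in KO slices, and 14.7% and 26.8% in WT slices. The beta ring showed less narrowing, with 25.1% and 31.4% in KO slices, and 24.0% and 29.8% in WT slices. Core subunits had a median of 274 footprint TPM in KO and 249 in WT slices, and regulatory subunits 146 TPM in KO and 134 in WT slices. In WT slices the highest footprints after Psmb1 were those of Psmb7 (296 ± 8.91 TPM in KO and 267 ± 10.8 TPM in WT) and Psmb3 (284 ± 8.48 TPM in KO and 267 ± 15.2 TPM in WT), and there neither differed beyond its spread from the other or from Psma2 (279 ± 4.94 TPM in KO and 264 ± 13.4 TPM in WT). In KO slices all 3 Psmb7 libraries lay above all Psma2 libraries. Across the 17 regulatory subunits the logarithms of WT footprint and RNA level had a Pearson r of 0.01, against 0.36 across the 14 core subunits. Over wider ranges of level r was higher, at 0.59 across all 31 subunits and 0.92 across the 48 members. These are descriptions over genes of the same libraries.

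**Figure D3:**
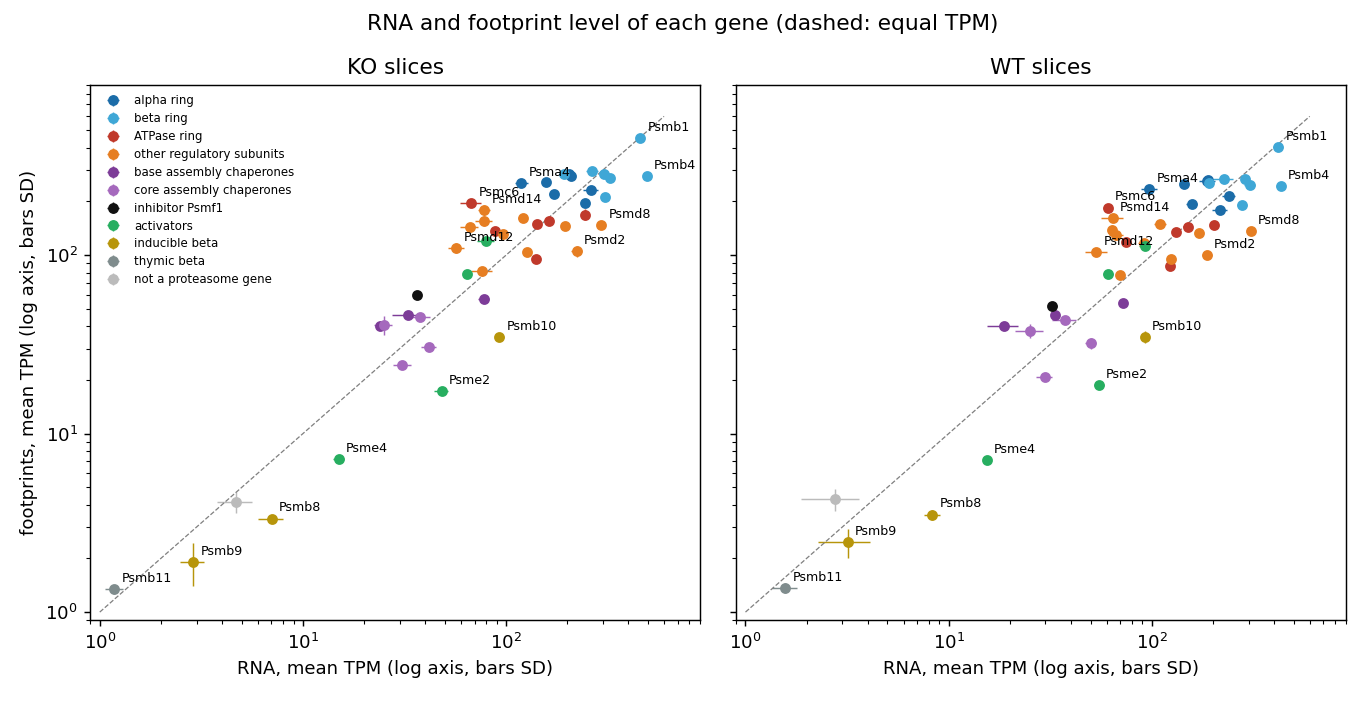
Mean RNA TPM (horizontal) and mean footprint TPM (vertical) of each gene, both on log axes with SD, in KO slices (left) and WT slices (right), coloured by role, with the line of equal TPM dashed. Regulatory subunits form a flat band of 78 to 185 footprint TPM in WT slices while their RNA spans 53 to 308 TPM, and the inducible and thymic subunits lie at the bottom.

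The even footprints came with unequal footprints per RNA. Psmc6 had the highest ratio of footprint to RNA TPM in the particle, 2.91 ± 0.42 in KO and 3.05 ± 0.19 in WT slices, with one of the lowest RNA levels (67.7 TPM in KO and 60.8 in WT). Psmd8, with the highest RNA of the regulatory particle, had 0.499 ± 0.012 in KO and 0.443 ± 0.019 in WT slices. The deubiquitinase Psmd14 was at 2.30 ± 0.27 in KO and 2.55 ± 0.33 in WT slices, and Psmb4, with the highest RNA of all members, at 0.564 ± 0.026 in KO and 0.564 ± 0.023 in WT slices. All 7 alpha genes lay above the median gene, which was 0.787 in KO and 0.785 in WT slices. The median subunit of the particle stood at the 70.9th percentile of all genes in KO and the 72.6th in WT slices. Low ratios were found for Psme2 (0.358 ± 0.019 in KO and 0.342 ± 0.014 in WT), Psmb10 (0.376 ± 0.021 in KO and 0.377 ± 0.035 in WT) and Psmb8 (0.482 ± 0.052 in KO and 0.425 ± 0.030 in WT). Psme4 was also low (0.478 ± 0.012 in KO and 0.463 ± 0.031 in WT). The inducible Psmb9 (0.658 ± 0.103 in KO and 0.824 ± 0.285 in WT) and Psme1 (1.22 ± 0.08 in KO and 1.29 ± 0.03 in WT) stood higher. The length correction of a gene was identical in both assays, so it cancels in the ratio. Ratios use the deposited TPM of each gene in each assay, and which part of the gene was counted was not examined.

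**Figure D4:**
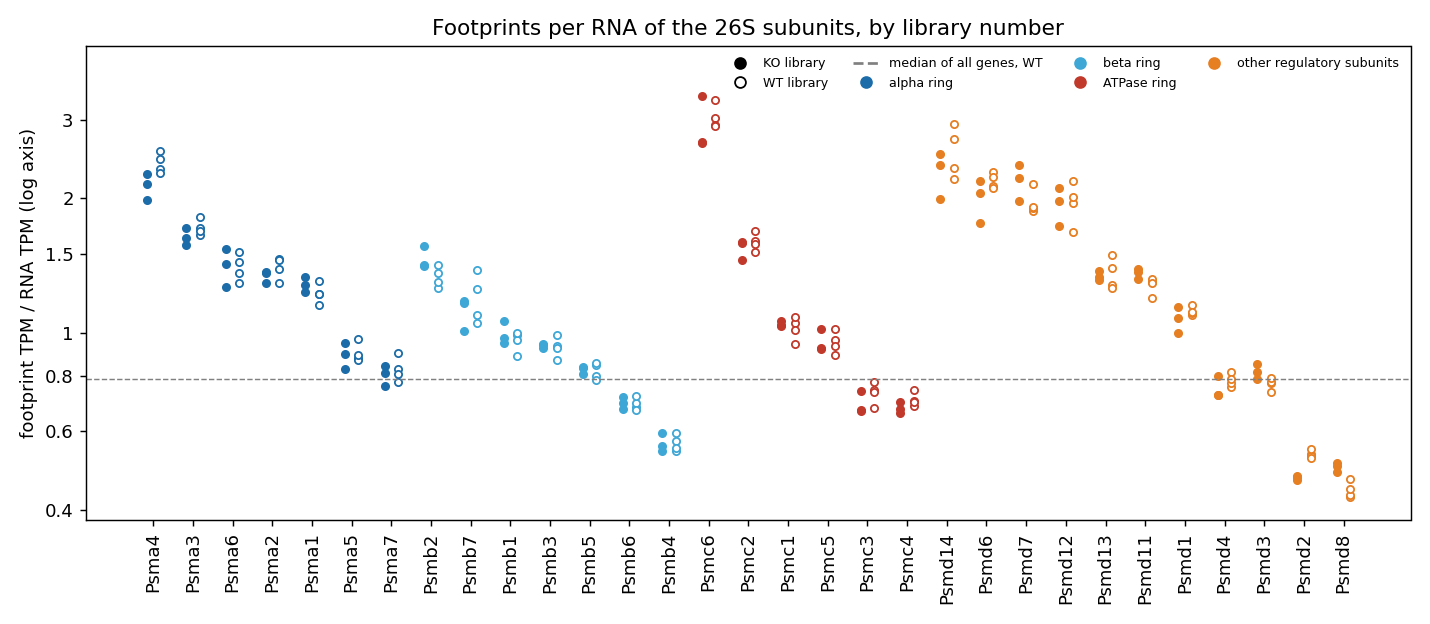
Footprint TPM over RNA TPM of the 31 subunits in libraries of the same number (vertical, log axis), grouped by role and ordered by WT level, with filled points for KO left of open points for WT; the dashed line is the median of all genes in WT. Psmc6 lies highest near 3 and Psmd8 and Psmd2 lowest near 0.5, and in Psmd2 all KO points lie below all WT points.

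Most proteasome genes are short by the length implied by deposited counts and TPM, which need not be that of the whole gene. By it 42 of the 48 were shorter than the median gene, with a median of 0.563 of its length. With each library's trend of counts on gene length removed, 14 members rose in footprints, where 8.86% of all genes rose, and 7 in RNA, where 2.9% rose. The median of the 31 subunits in footprints was then 0.10, and all 31 stayed above 0. In RefSeq 6 pseudogenes with matching names are annotated (copies of Psma5, Psmb5, Psmb6 and Psmb7), and how the authors' counting shared reads with them is not stated, so these 4 genes carry that uncertainty.

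Genes that work with the proteasome were counted from a list of 42, of which 38 were in the tables. In footprints 12 rose and 1 fell, with a median of 0.09, where 8.15% of all genes rose and 10.4% fell. In RNA 2 of the 38 rose, Vcp and Ufd1l, with a median of 0.06, where 2.11% of all genes rose. Among them the segregase Vcp, which unfolds ubiquitinated proteins ahead of the proteasome, changed by 0.26 ± 0.04 in footprints, with an adjusted p of 0.00238, and by 0.36 ± 0.06 in RNA, with an adjusted p of 0.00632, and its cofactors Nploc4 and Ufd1l were at 0.30 ± 0.04 and 0.15 ± 0.04 in footprints. The ubiquitin receptor Adrm1, a subunit of the regulatory particle with another name, was at 0.22 ± 0.04 (adjusted p = 0.00238), and the shuttle Rad23b at 0.19 ± 0.03. Shfm1, the small lid subunit also called Sem1, was at -0.06 ± 0.05 in footprints and 0.38 ± 0.14 in RNA, and Pomp, the maturation protein of the core, at 0.03 ± 0.04 in footprints, none called. Nfe2l1, the transcription factor that raises proteasome genes, was the gene that fell, with 74.4 ± 3.73 TPM in KO libraries against 81.7 ± 2.23 TPM in WT libraries (-0.14 ± 0.04, adjusted p = 0.0407). The chaperonin TRiC, another abundant ring complex, had 0 of 8 subunits called by edgeR in footprints and 1, Cct3, higher in RNA, with medians of 0.07 and 0.14. At an unadjusted p under 0.05 edgeR gave 3 TRiC subunits higher in footprints and 0 lower. Whether the proteasome differed from TRiC was not tested.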

How the data were processed

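Reads were handled by the authors with cutadapt 1.7.1, Trimmomatic 0.32, Bowtie2 2.1.0, TopHat2 2.0.9, SAMtools 0.0.19, bedtools and RSEM 1.2.11 on mm10, per the submitters' processing notes. The authors deposited RSEM gene tables of estimated counts and of TPM for 14459 genes. The labels list 19 samples, of which 14 are in the tables and 5 were not analysed here. After rounding, the estimated counts of each assay were fitted over all genes with edgeR 4.0.16 in R 4.3.3. Low genes were dropped by filterByExpr (minimum count 10), libraries were scaled by TMM, and p-values came from the robust quasi-likelihood test, with Benjamini-Hochberg adjustment over all genes and a threshold of 0.05. The script was tested on simulated data. Adjusted p-values come from edgeR where no tool is named, and standard errors were taken from the fold change and its F statistic. TE was the interaction of assay and genotype over 14 libraries, which treats RNA and footprints of one lysate as independent. Psmb11 did not pass the filter in RNA. Levels and ratios use TPM as deposited. Alternatives were DESeq2 1.42.0, limma 3.58.1 on log2(TPM + 1), upper-quartile scaling, no filter, a length trend removed, a replicate block, replicate sets as a covariate and each library left out.

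The members, lists, named genes and tests were chosen with earlier results of these data known. By the rule for named genes, fuller values are given, in at least one assay, for the members with the 8 smallest p in footprints, 4 in RNA and 4 in TE, the highest and lowest footprints, the inducible subunits and the activators. Nothing says that replicates with the same number in KO and WT share animals or a day, and their deviations from the group means had correlations of -0.44 to 0.01. Promoter sequences are from RefSeq. Gene lists were written from general knowledge.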

Additional observations from a re-analysis of the deposited data

Results flagged for a closer look

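Single WT libraries stood apart from the other 3 in 8 of 170 values examined, by Dixon's test on groups of 4. Chance alone gives about 1 in 20 such groups. Among footprints, Psmd4 was at 144 TPM in WT library 3 against 130.1 to 130.3 TPM in the others, Psmd11 at 112 TPM in WT library 2 against 118 to 119 TPM, Psme1 at 73.0 TPM in WT library 2 against 79.6 to 80.9 TPM, and Psmg4 at 28.7 TPM in WT library 1 against 33.0 to 33.4 TPM. Among RNA values, Psmb10 was at 96.4 TPM in WT library 2 against 91.0 to 91.8 TPM. Summed RNA of the alpha ring was 1323 TPM in WT library 3 against 1195 to 1212 TPM, and that of the core assembly chaperones 159 TPM in WT library 3 against 136 to 138 TPM. The ratio of footprints to RNA of Psmd7 was 2.16 in WT library 2 against 1.87 to 1.92. Psmd11 stayed higher in KO footprints without WT library 2, and Psmd4 was not called with all libraries.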

How the results depend on the processing

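No direction of a called member turned in any alternative, and 0 members fell in footprints, RNA or TE in each of them. With the replicate block, whose numbers are not known to pair the libraries, 6 members rose in footprints (5 of them 26S subunits) and 0 in RNA. In RNA, limma and the replicate sets as a covariate each called 2 members, both 26S subunits. Leaving out a library in turn gave 9 to 19 members and 8 to 17 26S subunits higher in footprints, and 1 to 6 members and 1 to 6 26S subunits in RNA. The cause of these moves was not tested, except that a left-out library also leaves fewer samples. The other settings gave 13 to 19 members in footprints and 5 to 7 in RNA, with the length trend and the scaling included. Median log2 fold changes of the 26S subunits ranged over all alternatives from 0.10 to 0.14 in footprints, 0.11 to 0.18 in RNA and -0.06 to -0.0004 in TE. Over all genes, higher calls in footprints ran from 429 to 1285 and in RNA from 73 to 402. A change of the usual size here, about 0.12, is near 3 standard errors in footprints and 2 in RNA, so members not called are not shown to be unchanged.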
